A study of Mus musculus with 24 samples.

Results

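Gamma-delta T cells were examined in subcutaneous tumors of Panc02, a murine pancreatic cancer cell line, by single-cell RNA-Seq. A barcode was counted as a gamma-delta T cell when it held at least 2 unique molecular identifiers (UMIs, each standing for 1 captured transcript) of Trdc, the constant region of the receptor delta chain, and at least 2 over Cd3d, Cd3e and Cd3g, which encode the CD3 complex. It also had to hold no UMI of Cd8b1, Cd4 or Ncr1, at most 1 of the macrophage gene C1qb, at least 1000 UMIs in all with under 10% from mitochondrial (mt-) genes, and no assembled T cell receptor beta chain (TRB). The rule selected 119 cells, which were 0.699% of 17017 T cells (at least 2 CD3 UMIs and at most 1 of C1qb) among 120912 barcodes within the UMI and mt- limits, of 144994 deposited. The cells were thus chosen by measured values, those of Trdc, the CD3 genes, Cd8b1, Cd4, Ncr1, C1qb and the receptor chains, which are given as a description only.

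All mice were male wild-type C57BL/6 animals, 6 to 7 weeks old, and the 8 treatments crossed 3 agents. PancVAX, a vaccine of synthetic long peptides (50 μg) from Panc02 neoantigens given with an adjuvant and a STING agonist, was injected on days 12 and 19 after tumor implantation, and the other mice received PBS. Anti-CTLA-4 (100 μg) was injected on days 15 and 22 and anti-PD-1 (100 μg) from day 12, with isotype antibody as the control. The treatments were isotype control, anti-PD-1, anti-CTLA-4, and anti-PD-1 with anti-CTLA-4, each without and with PancVAX, and tumors were taken on day 38. Tumors were pooled within each treatment, and each treatment was sequenced both as dissociated whole tumor (1 library) and after Percoll enrichment of immune cells (1 library). The 16 libraries held 77132398 to 176233225 UMIs each. The preparations were sequenced as separate batches, so preparation and batch cannot be told apart. The number of mice per pool, and whether both libraries of a treatment held the same mice, were not given in the sources used here. Each treatment was therefore taken as 1 sample, called a pool when its 2 libraries are joined, and p-values measure only the spread between the 4 pools on each side of a comparison. Values for the 8 pools are given below in the order isotype control, anti-PD-1, anti-CTLA-4 and both antibodies without PancVAX, then the same 4 with PancVAX.

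Gamma-delta T cells carry a receptor of a gamma and a delta chain in place of the alpha and beta chains of CD4 and CD8 T cells, and many respond without peptides presented on classical MHC molecules. In mice the variable segment of the gamma chain marks lineages that leave the thymus at different times. Cells with the V6 gamma chain, commonly paired with the delta chain encoded by Trdv4, arise in the fetus, settle in tissues and are known as producers of interleukin-17A. Cells with V1 or V4 gamma chains populate the blood and lymphoid organs, and many of them make interferon-γ and cytotoxic granules.

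The sequences around the starts of Il17a and its neighbor Il17f are shown because the first was abundant in a few gamma-delta T cells and the second was found in 1 of them. Both are from RefSeq (GRCm38.p6) and run from 250 bases before to 50 after the annotated start, 5′ to 3′ along the gene's own strand. Capitals mark AGGTCA, a core sequence bound by many nuclear receptors, or TGACCT where it lies on the opposite strand. The Il17a window is chr1:20730655-20730954 on the plus strand and the Il17f window is chr1:20784221-20784520 on the minus strand.
Il17a: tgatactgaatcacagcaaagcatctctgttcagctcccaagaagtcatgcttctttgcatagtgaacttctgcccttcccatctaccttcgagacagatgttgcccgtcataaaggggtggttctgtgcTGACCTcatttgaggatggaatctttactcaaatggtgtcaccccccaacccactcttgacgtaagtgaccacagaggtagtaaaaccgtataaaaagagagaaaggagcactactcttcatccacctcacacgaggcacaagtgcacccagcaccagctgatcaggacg
Il17f: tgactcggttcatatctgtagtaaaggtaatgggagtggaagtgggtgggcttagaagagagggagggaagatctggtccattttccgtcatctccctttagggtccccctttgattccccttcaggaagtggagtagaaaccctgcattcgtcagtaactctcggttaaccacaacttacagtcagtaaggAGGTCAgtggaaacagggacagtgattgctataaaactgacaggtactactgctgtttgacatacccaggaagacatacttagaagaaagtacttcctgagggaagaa
The Il17a window held 1 match, on the strand opposite to the gene and beginning at position -120, and the Il17f window held 1 match on the gene's strand beginning at position -58. The same letters occurred on either strand in 5340 of 32851 promoter windows of this length (16.3%). A match is a description of the letters and not a binding site.

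The label was checked against 4 markers. Trdc (ENSMUSG00000104876) and the CD3 genes were fixed by the rule, and the cells held 2 to 10 Trdc UMIs each. Tcrg-C1, a gamma-chain constant region that the rule did not use, had a UMI in 63 of 119 cells (52.9%, exact 95% interval 43.6 to 62.2). The share was 2.68% of 11779 CD8 T cells, 1.18% of 1187 CD4 helper T cells, 2.09% of 382 NK cells and 0.0381% of 18377 macrophages. Il17a (ENSMUSG00000025929) had a UMI in 21 of 119 cells (17.6%, exact 95% interval 11.3 to 25.7). All such intervals cover counting error only. Median UMIs per cell were 4258 in gamma-delta T cells, 4561 in CD8, 3526 in CD4 helper and 3499 in NK cells, and 7222 in macrophages. Trac, the alpha-chain constant region, had a UMI in 16.0% of gamma-delta and 65.8% of CD8 T cells. No assembled alpha chain was found in the gamma-delta T cells, but this is not a check of the label. Chains were assembled for the Percoll libraries alone, and their 67 gamma-delta T cells were already chosen for having no beta chain. Trbc2 gave no contrast like that of Trac, with a UMI in 54.6% and 58.5%. The other beta-chain constant region, Trbc1, had a UMI in 8 of 26 cells with the gamma segment Tcrg-V6 and 40 of 93 without it. It was found in 32.0% of CD8 T cells. Any of 7 alpha-beta T cell markers was found in 79.8% of gamma-delta and 54.2% of NK cells, and in all CD8 T cells, whose gate requires Cd8b1.

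The edges of the rule held cells of both kinds. Exactly 2 Trdc UMIs, just inside, were found in 45 cells, of which 22 had Tcrg-C1 and 12 had Tcrg-V6. A further 49 barcodes met every other condition with 1 Trdc UMI, just outside, and 14 of these had Tcrg-C1 and 3 had Tcrg-V6. Assembled receptors came from the Percoll libraries alone, where the TRB condition removed 10 of 77 barcodes (13.0%), whereas 79.4% of 9180 Percoll T cells had a TRB chain. The 52 whole tumor cells could not be screened in this way. Barcode sequences present in more than 1 library made up 17.6% of gamma-delta T cells (21 of 119) and 17.3% of all barcodes, and no pair of gamma-delta T cells shared one.

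RNA of other cells was found in these cells, for most lists in shares close to those in CD8 T cells. At least 1 of 8 macrophage markers was found in 47.9% of gamma-delta and 49.6% of CD8 T cells, with Adgre1 at 0 in the former, and the summed level ranged over the pools from 53.3 to 185 and from 93.4 to 193 UMIs per 1000000 UMIs of the pool (CPM). Epithelial markers were found in 25.2% and 24.9% (0 to 1555 and 383 to 949 CPM), with Krt5 at 0. Neutrophil markers were found in 4.20% and 3.94% (0 to 1205 and 25.3 to 200.3 CPM), with Retnlg and Cxcr2 at 0. NK and innate lymphoid markers were found in 42.9% and 30.1% (40.0 to 240.3 and 77.7 to 110.2 CPM), with Ncr1 (fixed by the rule), Klra8 and Klrg1 at 0. B cell markers were found in 36.1% and 16.3% (26.7 to 133.9 and 20.6 to 49.7 CPM), with Ms4a1 at 0. No doublet caller was run. The 14 gamma-delta T cells over 10000 UMIs held 42.9% of all their UMIs, and 7 of the 14 held 10 or more UMIs of the epithelial keratin Krt18, up to 139, while no other gamma-delta T cell held 3 or more. The part of these RNAs in the results was not tested. Levels in CPM include the cells over 10000 UMIs, and some values without those cells are given below.

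Gamma-delta T cells used several gamma chains. Tcrg-V4 was found in 31 cells (26.1%), Tcrg-V6 (ENSMUSG00000076746) in 26 (21.8%), Tcrg-V1 in 24 (20.2%), Tcrg-V5 in 9 (7.56%), and Tcrg-V3 and Tcrg-V7 in 4 each (3.36%). The background in CD8 T cells was 0.127% for Tcrg-V4, 0.577% for Tcrg-V6 and 2.00% for Tcrg-V1, and no macrophage held a UMI of Tcrg-V4 or Tcrg-V6, which allows up to 3 of 18377 cells. Trgv2 was found in 46.2% of gamma-delta T cells but also in 32.1% of CD8 T cells, and was left out of the counts that follow. Of the 119 cells, 57 had exactly 1 of these Tcrg-V segments, 20 had 2 or more and 42 had none. Tcrg-V1 shared 9 cells with Tcrg-V4, and Tcrg-V5 shared 6 with Tcrg-V6. Tcrg-V6 shared 1 cell with Tcrg-V1 and 2 with Tcrg-V4.

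The delta chain went with the gamma chain. A Trdv segment was found in 51 cells. Trdv4 (ENSMUSG00000076867) was found in 31 cells, and 25 of the 26 Tcrg-V6 cells were among them. Of the 29 cells with Tcrg-V4 but not Tcrg-V6, 1 had Trdv4 and 4 had Trdv5, and of the 23 cells with Tcrg-V1 but not Tcrg-V6, none had Trdv4. Trdv4 does not mark these cells on its own, since 25.9% of NK cells also held a Trdv4 UMI, against 0.0934% of CD8 T cells.

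Il17a followed the same division. It had 242 UMIs in 21 cells, up to 87 in 1 cell, and the 2 highest cells held 150 of them (62.0%). All 21 cells had Trdv4 and Cd163l1, 18 had Tcrg-V6 and 15 had Blk, whereas none had Ccl5. Il17a was found in none of the 23 cells with Tcrg-V1 and no Tcrg-V6, and in none of the 29 cells with Tcrg-V4 and no Tcrg-V6. Il17a was found in 0.0849% of CD8 T cells, 0.505% of CD4 helper T cells and 0.00544% of macrophages, and in none of 382 NK cells (exact 95% upper limit 0.961%). Il17f (ENSMUSG00000041872), the neighboring gene that encodes a related cytokine, had 2 UMIs in 1 cell, and Il22 had 1 UMI.

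Many genes of the type 17 list were found in a larger share of the 26 Tcrg-V6 cells than of the others. The others were the 93 cells without a Tcrg-V6 UMI, of which 6 had Trdv4. Whether some of them carried a V6 chain whose RNA was not captured was not tested. Cd163l1, a scavenger receptor known from interleukin-17-producing gamma-delta T cells, was found in 24 of 26 Tcrg-V6 cells and 7 of 93 other gamma-delta T cells. Il17a was found in 18 and 3, the kinase gene Blk in 18 and 5, the glycerol channel gene Aqp3 in 21 and 5, the actinin gene Actn2 in 21 and 6, and the leukotriene receptor gene Ltb4r1 in 14 and 5. Among transcription factors of the lineage, Rora was found in 20 and 14, Zbtb16 in 10 and 3, Sox13 in 9 and 1 and Maf in 12 and 9. Receptors followed, with Il23r in 5 and 1, Il1r1 in 6 and 2, Ccr2 in 12 and 4 and Cxcr6, a chemokine receptor of tissue T cells, in 24 and 21. Tmem176b (25 and 26), Il18r1 (14 and 28), Il7r (15 and 34) and Cd44 (17 and 32) were widely found outside the Tcrg-V6 cells as well, and 5830411N06Rik ran the other way, in none and 5.

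Many genes of the type 1 and circulation lists were found in a larger share of the other 93 cells. Nkg7, a cytotoxic granule membrane gene, was found in 86 of 93 and in 3 of 26 Tcrg-V6 cells, and Ccl5, a chemokine of cytotoxic cells, in 74 and 2. The Ly6c2 surface marker of memory-like T cells was found in 71 and 1, the NK receptor gene Klrd1 in 58 and 2, and the chemokine gene Xcl1 in 47 and 1. Cd27, Eomes, Cd160, Ccr7 and Ifng were found in none of the 26 Tcrg-V6 cells (exact 95% upper limit 13.2%) and were present in 29, 19, 36, 18 and 11 of the others. Of the circulation genes, Tcf7 was found in 43 of 93 and 3 of 26, Lef1 in 39 and 4, S1pr1 in 31 and 2, Klf2 in 74 and 11, and Bcl2 in 68 and 11. Other members of these lists did not divide the cells in this way, with Gzmb in 39 of 93 and 10 of 26, the interleukin-2 receptor gene Il2rb in 69 and 18, Klrk1 in 27 and 9, Cxcr3 in 17 and 6 and Il6ra in 8 and 3. Median depth was 3914.5 UMIs in Tcrg-V6 cells and 4394 in the others, and 15 of the 26 came from Percoll libraries.

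**Figure D1:**
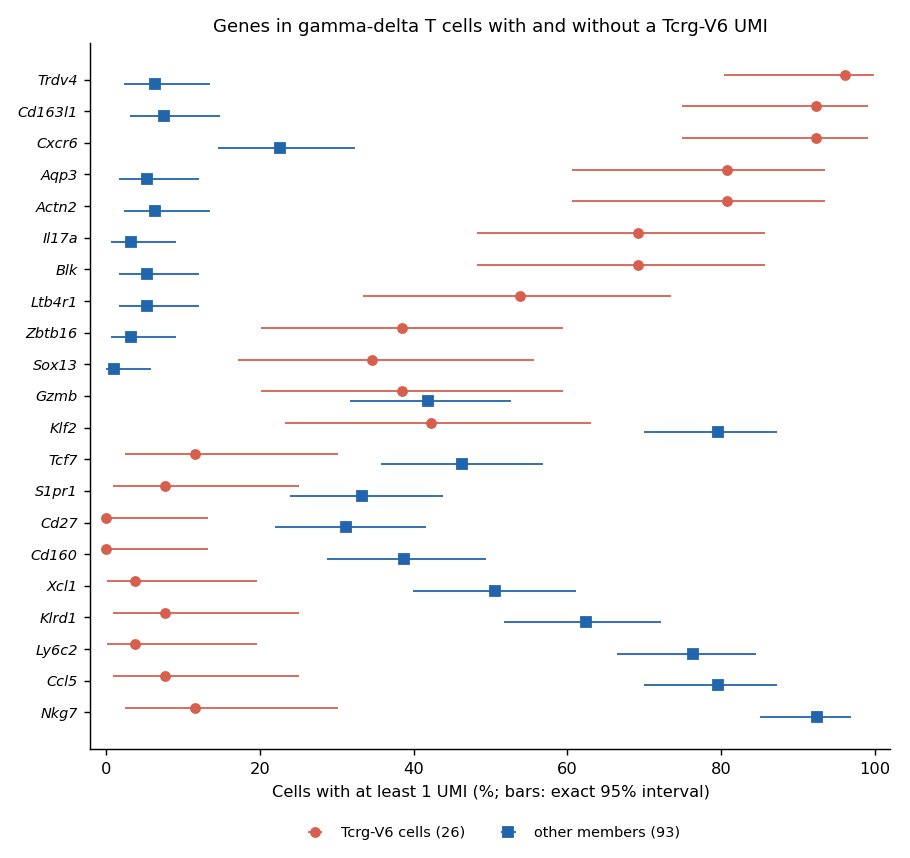
Share of cells (x axis, percent) with at least 1 UMI of each of 21 genes (y axis) in 26 gamma-delta T cells with Tcrg-V6 and 93 without, with exact 95% intervals as bars. Type 17 genes such as Cd163l1 (92.3% against 7.53%) sit to the right in Tcrg-V6 cells, genes such as Nkg7 (11.5% against 92.5%) sit to the right in the others, and Gzmb overlaps (38.5% and 41.9%).

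Some genes that divided the cells most, picked after their values were seen, were set against each other cell by cell. A UMI of Ccl5, Nkg7 or Ly6c2 without any of Cd163l1, Blk, Aqp3 or Il17a was found in 79 cells, the reverse in 26, both kinds in 11 and neither in 3. The 23 cells with Tcrg-V1 and no Tcrg-V6 included 22 with Nkg7, 18 with Ccl5, 18 with Ly6c2 and 15 with Gzmb. The 29 cells with Tcrg-V4 and no Tcrg-V6 included 27 with Nkg7, 21 with Ccl5, 23 with Ly6c2 and 14 with Gzmb. Tcrg-V1 and Tcrg-V4 were found together in 9 cells, so these sets share cells and are not a comparison of separate cells.

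Differences between Tcrg-V6 cells and the others were tested on UMIs summed by pool, with the pool as a block, in the 7 pools with at least 2 cells of both kinds. This comparison was added after the segments had been examined, and receptor genes were left out. Of 1012 genes tested by edgeR's quasi-likelihood test, 35 were higher in Tcrg-V6 cells (3.46%) and 54 lower (5.34%) at an adjusted p under 0.05 and an absolute log2 fold change over 0.5. With RLE size factors 37 were higher and 35 lower, and DESeq2 called 16 higher and 235 lower of 12451. Of the 28 type 17 genes, 16 were tested, 9 were higher and none was lower, with a median log2 fold change of 2.96 against -0.02 over all genes tested. Of the 20 type 1 and cytotoxic genes, 9 were tested, none was higher and 6 were lower, with a median of -4.85. In this and the later comparisons a gene could pass the filter on low counts through the group where it is high, so counts over the members tested are a description. Without the 8 cells that held Dntt, a gene of developing lymphocytes, 31 genes were higher and 52 lower of 890.

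Il17a had the largest increase in Tcrg-V6 cells, with a log2 fold change of 6.57 ± 0.56 (SE) and an edgeR adjusted p of 3.2e-05. Aqp3 (4.80 ± 0.67), Blk (4.00 ± 0.84), Cd163l1 (3.83 ± 0.59) and Cxcr6 (3.51 ± 0.61) were also higher. Outside the list, the costimulatory receptor gene Icos (3.30 ± 0.58) and the actin-capping gene Capg (2.87 ± 0.37) were higher. Gzma was lower by a log2 fold change of -8.15 ± 0.94, Ly6c2 by -7.99 ± 0.51, Ccl5 by -6.02 ± 0.56, Xcl1 by -5.75 ± 0.58 and Nkg7 by -4.85 ± 0.59. Gzma was found in none of the 26 Tcrg-V6 cells and in only 13 of the 93 others, among them all 8 cells with Dntt. Markers of other cell types also divided the cells. The neutrophil marker S100a9 was called lower (-7.12 ± 1.16, edgeR adjusted p = 0.0208), with a UMI in none of 26 Tcrg-V6 cells and 5 of 93 others. The B cell marker Ighm was found in none and 37. The part of RNA from other cells was not tested. The log2 fold change of Gzmb was -0.40 ± 0.76 (edgeR adjusted p = 0.816), that of the interleukin-7 receptor gene Il7r 1.56 ± 0.58 (0.118) and that of Pdcd1, encoding PD-1, 2.85 ± 1.01 (0.108). Within the UMI and gene limits the study used on cells, which leave out those over 10000 UMIs, Il7r (1.87 ± 0.51, edgeR adjusted p = 0.0151) and Pdcd1 (3.02 ± 0.93, 0.0294) were called as higher, 9 of 9 tested type 17 genes were higher and 5 of 7 type 1 genes lower, beside 57 higher (11.2%) and 51 lower (10.1%) of all 507 genes tested. In place of 89 genes, 40 were called without the isotype control pool, 44 without anti-PD-1, 45 without PancVAX, 56 without PancVAX with anti-PD-1 and 28 without PancVAX with both antibodies.

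Among the cells without Tcrg-V6 was a group of 8 that held Dntt, the terminal transferase of developing lymphocytes. These genes were examined after their values had been seen, apart from those in the gene lists. Dntt had 2 to 20 UMIs in each of the 8 cells and none in the other 111. Ly6d was found in all 8 cells and none of the 111, and the thymocyte marker Cd24a and the transcription factor genes Myb and Sox4 in all 8 and in 10, 10 and 11 of the 111. The recombinase gene Rag1 was found in 5 of the 8, and Rag2 and Kit in none. Gzma, a granzyme gene, had 180 of its 374 UMIs in these cells. Tcrg-C4 was found in all 8, Tcrg-C1 in 7 and Trbc2 in all 8, and the beta-chain segment Trbv13-2 in 7 of the 8 and 4 of the 111, while Ccl5, Gzmb, Il17a and Tcrg-V6 were found in none. They came from 7 libraries of 4 pools, 5 cells with and 3 without PancVAX, with 4734 to 18256 UMIs per cell. Across all barcodes within limits, 73 held 2 or more Dntt UMIs, and 58 of these had no CD3 UMI. These genes go against the label of a mature T cell, and whether the 8 are gamma-delta T cells was not tested, so counts of genes called are also given without them. In the Tcrg-V6 comparison, 83 genes were called without them, of which 71 were among the 89 called with them. Ramp1 (2.29 ± 0.59, edgeR adjusted p = 0.0327) and Serpinb1a (3.87 ± 0.94, 0.0271) were among the calls added. Tmem176b (2.49 ± 0.74, 0.0535) was among those that ended.

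Gamma-delta T cells were a smaller share of T cells in the PancVAX pools. Their number in the 8 pools was 12, 25, 16 and 19 without PancVAX and 10, 14, 10 and 13 with it. Their share of T cells was 0.979%, 1.66%, 0.913% and 1.02% without PancVAX and 0.551%, 0.374%, 0.429% and 0.468% with it, so that the groups did not overlap. The mean was 0.456% ± 0.0745 (SD, n = 4 pools) with PancVAX and 1.14% ± 0.350 (n = 4) without, a difference of -0.687 percentage points. The two-sided exact permutation p was 0.0286, the smallest that 70 splits of 8 pools can give, and 0.0857 after Benjamini-Hochberg adjustment over the 3 agents, so no agent could have passed 0.05.

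The PancVAX pools also held more T cells, 10667 against 6350, with 47 gamma-delta T cells among them against 72. Over all barcodes within limits the gamma-delta share was 0.0771% ± 0.0105 with and 0.125% ± 0.0543 without PancVAX, a difference of -0.0479 percentage points whose exact permutation p was also 0.0286 (n = 4 pools each). The anti-PD-1 pool was at 0.205% and the other 3 pools without PancVAX at 0.0879% to 0.112%, and without the anti-PD-1 pool the difference was -0.0212. T cells of the PancVAX pools were shallower, with pool medians of 3615 to 3764 UMIs against 4586 to 5527. When each T cell was thinned to 2000 UMIs, leaving out 1481 shallower T cells with and 479 without PancVAX, the shares were 0.274% and 0.626% and did not overlap. Without the 8 Dntt cells the difference in the share of T cells was -0.684, and within the study's limits on cells it was -0.823.

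**Figure D2:**
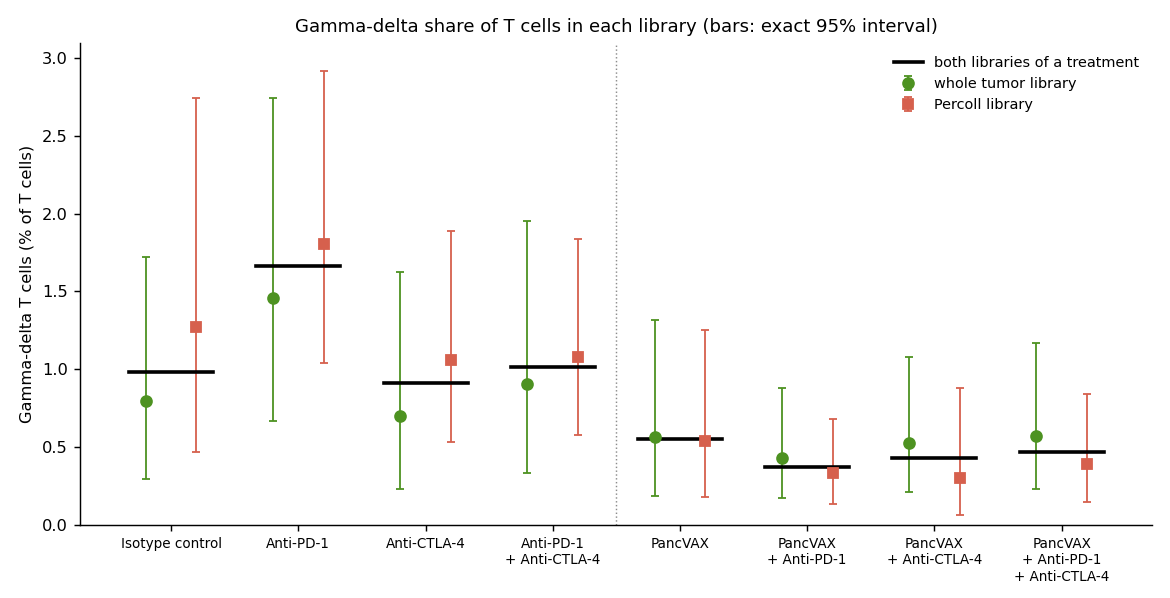
Gamma-delta T cells as a percentage of T cells (y axis) for each of the 8 treatments (x axis) in whole tumor (circles) and Percoll (squares) libraries, with exact 95% intervals and a black line for both libraries joined. The joined shares run from 0.913% to 1.66% in the 4 pools without PancVAX and from 0.374% to 0.551% in the 4 with it.

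Neither the antibodies nor preparation, averaged over the 8 treatments, gave a comparable separation. The share was 0.847% ± 0.544 in the 8 Percoll libraries and 0.742% ± 0.327 in the 8 whole tumor libraries, higher in Percoll in 4 of 8 treatments (exact paired permutation p = 0.297). It was higher in Percoll in each treatment without PancVAX and lower in each with PancVAX, so these means join opposite shifts. Only Percoll cells could fail the TRB condition. Without that condition the Percoll share was 0.968% ± 0.609, a difference of 0.226 percentage points from whole tumor libraries (exact paired permutation p = 0.125). Within preparations, the PancVAX difference was -0.915 percentage points in Percoll and -0.442 in whole tumor libraries, and these differed by -0.474 (exact permutation p = 0.0286, the smallest possible with 4 pools on each side). The share was 0.880% ± 0.594 with and 0.718% ± 0.269 without anti-PD-1 (exact permutation p = 0.686, n = 4), and 0.707% ± 0.301 with and 0.892% ± 0.574 without anti-CTLA-4 (exact permutation p = 0.6, n = 4).

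No difference in the make-up of the gamma-delta T cells by segment passed the test after adjustment. Tcrg-V6 was found in 3, 6, 0 and 4 cells of the pools without PancVAX and in 3, 2, 3 and 5 with it. Its mean share was 28.2% ± 10.1 with and 17.5% ± 11.8 without PancVAX (n = 4 pools each), and the groups overlapped (exact permutation p = 0.286, adjusted 0.381 over 4 genes). Tcrg-V1 was found in 2, 6, 7 and 4 cells without and 3, 1, 0 and 1 with PancVAX, or 26.4% ± 12.0 and 11.2% ± 13.0 (exact permutation p = 0.114, adjusted 0.381, n = 4). In the Percoll libraries alone the Tcrg-V1 share was 12.7% ± 8.81 with and 31.0% ± 5.69 without PancVAX (exact permutation p = 0.0286, the smallest possible, adjusted 0.114, n = 4), and in whole tumor libraries the means were 10.0% and 21.9% (exact permutation p = 0.543). Tcrg-V4 was found in 30.1% ± 9.71 without and 21.1% ± 8.30 with PancVAX (exact permutation p = 0.2, adjusted 0.381, n = 4). Il17a was found in 17.8% ± 11.3 without and 19.2% ± 2.63 with PancVAX (exact permutation p = 0.771, n = 4), and the direction of Tcrg-V4 and of Il17a turned when 2 UMIs were asked for.

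**Figure D3:**
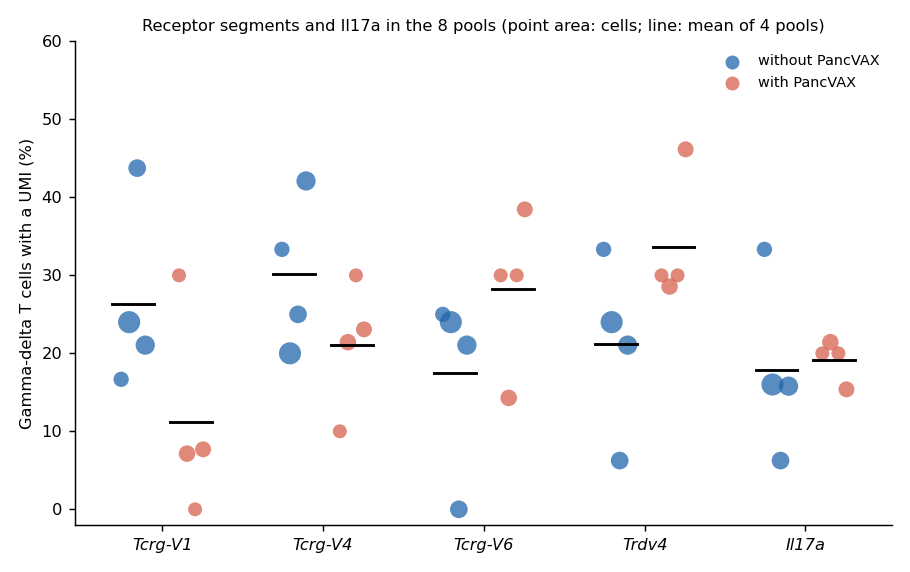
Share of gamma-delta T cells (y axis, percent) with a UMI of Tcrg-V1, Tcrg-V4, Tcrg-V6, Trdv4 or Il17a in the 4 pools without (blue) and the 4 with PancVAX (orange), with point area set by the number of gamma-delta T cells and a line at the mean of 4 pools. The pools of both groups overlap for each gene, and Tcrg-V6 is at 0 in the anti-CTLA-4 pool.

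The level of Il17a RNA differed widely between pools without following PancVAX. It was 1975, 82.4, 46.7 and 472 CPM without and 492, 53.7, 147 and 101 CPM with PancVAX, and the isotype control pool was highest with 107 UMIs in 4 cells. Cd163l1 was at 628, 100.1, 33.4 and 134 CPM without and 336, 80.6, 147 and 216 CPM with PancVAX, highest in the isotype control pool and lowest in the anti-CTLA-4 pool, as for Blk (148 and 6.68 CPM in these pools).

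Gene expression within gamma-delta T cells was compared between treatments on UMIs summed by pool, with the 3 agents in 1 model. Of 1843 genes tested by edgeR, none was called for PancVAX (0%, with 54 at an unadjusted p under 0.05 and none by DESeq2) or for anti-PD-1 (0%, with 46 and none). For anti-CTLA-4, 1 gene was called (0.0543%, with 77 at an unadjusted p under 0.05 and 2 by DESeq2). With PancVAX, the 15 type 17 genes tested had a median log2 fold change of 0.57 and the 10 type 1 genes -0.44, beside 0.01 over all genes, and none of them was called. Cell cycle genes had medians of -1.30 for PancVAX, 1.26 for anti-PD-1 and 1.82 for anti-CTLA-4 over 8 tested, and none was called. Without the pool of both antibodies, Birc5 of this list (6.02 ± 0.81) and the cell division genes Ube2c (7.21 ± 0.75) and Cenpa (3.76 ± 0.49) were called for anti-CTLA-4.

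The gene called for anti-CTLA-4 was Cxcl2 (ENSMUSG00000058427), a neutrophil-attracting chemokine, with a log2 fold change of 5.52 ± 0.46 and an edgeR adjusted p of 0.00235. Its 207 UMIs lay in 10 cells. By pool, Cxcl2 had 0, 2, 35 and 80 UMIs in 0, 1, 1 and 3 cells without PancVAX and 0, 2, 33 and 55 UMIs in 0, 1, 3 and 1 cells with it. Each anti-CTLA-4 pool was thus above each pool without the antibody, on 8 cells in all. The call was lost at a log2 fold change of 5.53 ± 1.14 when the 16 libraries were fitted with preparation as a covariate (edgeR adjusted p = 0.0659), at 5.77 ± 0.61 without the anti-PD-1 pool (0.0599) and at 4.80 (SE 1.2) without the Dntt cells (adjusted p = 1). The neutrophil marker S100a9 moved with it, with 131 of its 132 UMIs in anti-CTLA-4 pools, 67 in the pool of both antibodies and 64 in that of PancVAX with both, both of which also received anti-PD-1. Its log2 fold change was 6.77 ± 0.76 for anti-CTLA-4 and 8.35 ± 0.92 for anti-PD-1 (edgeR adjusted p = 0.165 and 0.301). Within the study's limits on cells, S100a9 (6.06 ± 0.72, adjusted p = 0.0113) and Cxcl2 (7.72 ± 0.73, 0.0107) were both called. Of the 207 Cxcl2 UMIs, 127 (61.4%) lay in 3 cells that also held S100a9, and the part of neutrophil RNA in the call was not tested.

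Against CD8 T cells, gamma-delta T cells were higher for Il17a, Cd163l1, Tcf7 and Lef1 and lower for most genes tested of the inhibitory receptor list. The comparison was made in the 3 Percoll libraries with at least 10 gamma-delta T cells (anti-PD-1 with 16, anti-CTLA-4 with 11 and both with 13), with the library as a block. Of 10461 genes tested by edgeR, 72 were higher (0.688%) and 126 lower (1.2%) in gamma-delta T cells. The balance depended on the method, with 89 higher and 95 lower under RLE size factors, and 9 higher and 136 lower of 17694 by DESeq2. A fit over all 8 pools, added after the data had been seen, tested 11771 genes, with 181 higher (1.54%) and 310 lower (2.63%), and shared 160 of the 198 genes called in the 3 libraries with none in the opposite direction. Without the library of both antibodies, 63 genes were called in place of 198, and without the Dntt cells 54 were higher and 105 lower. Within the study's limits on cells, 65 were higher and 205 lower of 8216 in the 3 libraries, sharing 137 of the 198 calls. The genes of the gates and all receptor genes were left out of both fits.

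Of 20 type 17 genes tested in the 3 libraries, 5 were higher and 1 lower, with a median log2 fold change of 1.65 beside -0.22 over all genes. DESeq2 called 1 of 27 higher and 1 lower in these libraries. Over 8 pools, 15 of 24 were higher and none lower by edgeR. Il17a was detected at 46.7 to 1975 CPM in the gamma-delta cells of the 8 pools (median 124) and at 0 to 0.639 in their CD8 T cells (median 0.102), so the types did not overlap. Its log2 fold change was 8.14 ± 1.07 in the 3 libraries and 10.08 ± 0.47 over 8 pools (edgeR adjusted p = 1.43e-11 and 5.06e-26). Cd163l1 (5.82 ± 0.80), Ltb4r1 (4.30 ± 0.82) and Ramp1, a subunit of the receptor for the neuropeptide CGRP (2.08 ± 0.32), were also higher in the 3 libraries. Blk was found in 19.3% of gamma-delta and 0.136% of CD8 T cells, with a log2 fold change of 7.60 ± 0.51 over 8 pools. The exception was Cxcr6, lower in the 3 libraries (-1.54 ± 0.32) but not called over 8 pools (-0.48 ± 0.23, edgeR adjusted p = 0.3).

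The inhibitory receptor list also holds Tox, Cd274 and Entpd1, which do not encode inhibitory receptors. Of its 9 genes tested, 7 were lower and none higher than in CD8 T cells, with a median log2 fold change of -3.02. Over 8 pools, 7 of 10 were lower. DESeq2 called 3 of 10 lower in the 3 libraries. Pdcd1 in gamma-delta T cells was at 0, 64.8, 33.4 and 70.5 CPM without and 134, 26.9, 107 and 140 CPM with PancVAX, against 243 to 355 CPM in CD8 T cells. Every gamma-delta pool was below every CD8 pool. The log2 fold change of Pdcd1 was -4.38 ± 0.45 in the 3 libraries and -2.32 ± 0.25 over 8 pools (edgeR adjusted p = 1.54e-19 and 9.14e-11). Lag3, which encodes an inhibitory receptor for MHC class II, had 10 UMIs in 5.04% of gamma-delta T cells and was found in 48.4% of CD8 T cells (-4.83 ± 0.51). Tigit (11.8% and 53.5%, -2.83 ± 0.42), Ctla4 (10.9% and 41.9%, -2.97 ± 0.48) and the exhaustion-associated transcription factor gene Tox (-3.98 ± 0.56) were also lower. Within the gamma-delta T cells, Pdcd1 was found in 12 of 26 Tcrg-V6 cells and 8 of 93 others, while Lag3 was found in none and 6.

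Of the 20 type 1 and cytotoxic genes, 1 was higher and 11 were lower in the 3 libraries (median -1.14), and 2 were higher and 14 lower over 8 pools. DESeq2 called 1 higher and 6 lower in the 3 libraries. Gzmk, a granzyme gene of effector memory CD8 T cells, had 1 UMI in 119 gamma-delta T cells and 8890 in CD8 T cells, a ratio of 0.0119 (exact 95% interval 0.000302 to 0.0664). Gzmb was at 66.6 to 733 CPM in gamma-delta pools and 642 to 1403 in CD8 pools, which overlapped, with a log2 fold change of -1.31 ± 0.25 in the 3 libraries (edgeR adjusted p = 2.17e-05). Perforin (Prf1, -2.97 ± 0.53), Gzma (-2.57 ± 0.26), Ifng (-2.27 ± 0.40) and Nkg7 (-1.02 ± 0.19) were also lower. Over 8 pools Gzma was at -2.98 ± 0.36, and at -4.36 ± 0.37 without the Dntt cells. Gzmd, Gzme and Gzmg, granzyme genes clustered with Gzmb, had no UMI in gamma-delta T cells and were at least 33.0-fold, 29.9-fold and 11.8-fold lower, taking 3 counts over all gamma-delta T cells as the limit. These granzyme genes are close copies of each other, so reads may be split or lost among them. The costimulatory receptor gene Tnfrsf4, encoding OX40, was also without a UMI and at least 26.8-fold lower.

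Ly6c2 was the type 1 gene that was higher than in CD8 T cells (1.90 ± 0.23 in the 3 libraries, 1.17 ± 0.20 over 8 pools), joined over 8 pools by Eomes (1.38 ± 0.39). Ccl5 was not called in either fit, with log2 fold changes of 0.51 ± 0.18 and -0.44 ± 0.21 (edgeR adjusted p = 0.138 and 0.273). The chemokine genes Ccl3 (-1.87 ± 0.38) and Ccl4 (-2.58 ± 0.30) were lower.

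Of 8 circulation and naive state genes, 4 were higher and none lower in the 3 libraries, and 1 was higher by DESeq2. Tcf7, a transcription factor gene of naive and memory T cells, was at 73.8, 100.1, 73.4 and 183 CPM without and 157, 197, 53.3 and 165 CPM with PancVAX in gamma-delta T cells, and between 15.5 and 45.2 CPM in CD8 T cells. Each gamma-delta pool was above each CD8 pool. Tcf7 (2.05 ± 0.45) and the related transcription factor gene Lef1 (2.22 ± 0.49) were higher in both fits, and Klf2 (1.67 ± 0.24) in the 3 libraries alone (0.55 ± 0.19 over 8 pools, adjusted p = 0.0992, and 0.71 ± 0.18 and 0.0112 without the Dntt cells). The early activation and retention marker Cd69 was at 320 to 868 CPM in gamma-delta pools and 112 to 289 in CD8 pools (1.43 ± 0.25). Outside the lists, Ly6d (6.97 ± 0.62) rose most in the 3 libraries among called genes with at least 50 UMIs. All its UMIs in gamma-delta T cells lay in the Dntt cells. The chemokine receptor gene Cxcr4 (3.36 ± 0.46) and Klrb1c, encoding NK1.1 (3.54 ± 0.74), were also among the most increased genes. Over 8 pools without the Dntt cells, 17 of 24 type 17 genes and 4 of 8 circulation genes were higher. In the same fit, 11 of 20 type 1 genes and 7 of 10 genes of the inhibitory receptor list were lower. Of all 11655 genes tested, 141 were higher (1.21%) and 230 lower (1.97%).

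**Figure D4:**
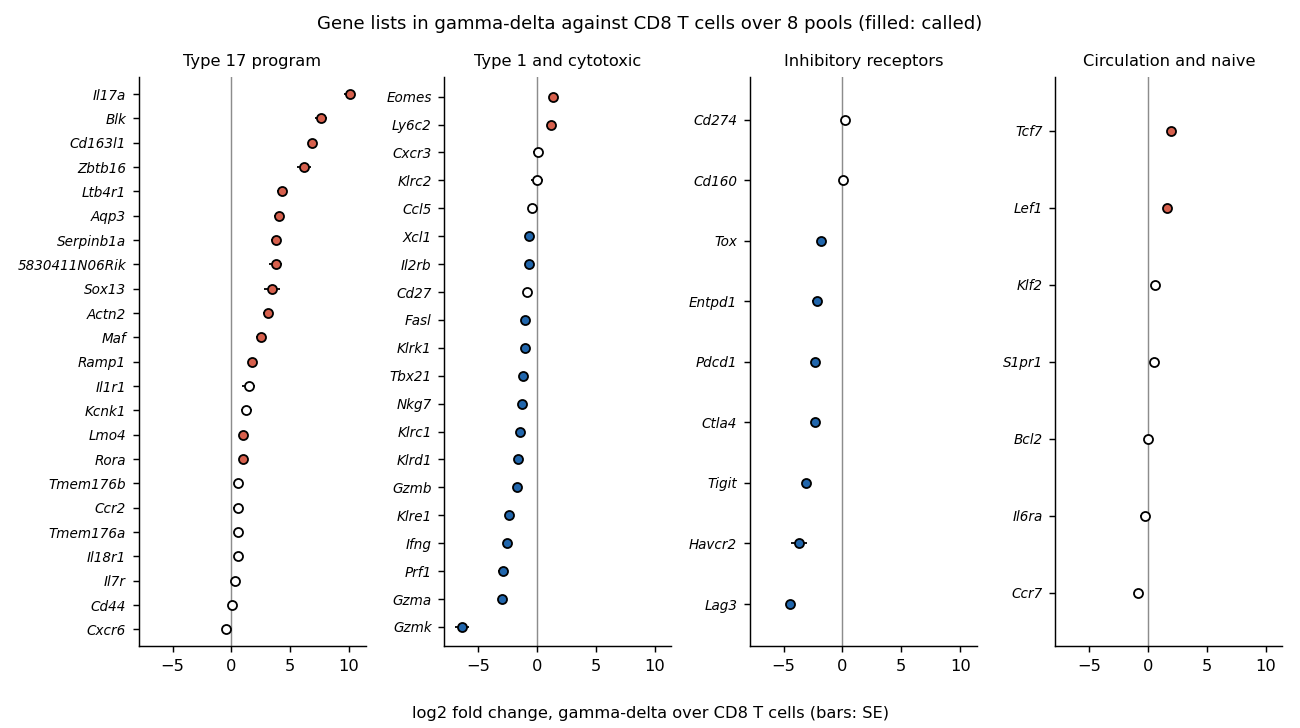
Log2 fold change with SE (x axis) of gamma-delta against CD8 T cells over 8 pools for members of 4 gene lists (y axis), with filled points for genes called by edgeR. Type 17 genes lie mostly to the right, with Il17a farthest at 10.08. Most genes of the inhibitory receptor and cytotoxic lists lie to the left, with Gzmk at -6.40.

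Against CD4 helper T cells, gamma-delta T cells were higher for Xcl1, Ly6c2 and Cd160 and lower for 4 inhibitory receptor genes. Of 2681 genes tested in the 3 libraries, 16 were higher (0.597%) and 47 lower (1.75%) by edgeR, and over 8 pools 57 (1.05%) and 131 (2.42%) of 5405, sharing 51 of the 63 calls. In the 3 libraries, 159 genes were called without anti-PD-1 and 31 without both antibodies, and 12 were higher and 35 lower without the Dntt cells. Xcl1 (3.58 ± 0.47), Cd160, an inhibitory receptor gene found on cytotoxic lymphocytes (2.83 ± 0.46), Ly6c2 (2.67 ± 0.32) and Fcer1g, an Fc receptor signaling subunit (2.51 ± 0.37), were higher in the 3 libraries. Ly6d (6.465 ± 0.779), whose UMIs in gamma-delta T cells all lay in the Dntt cells, was also higher in these libraries. No type 17 gene of 10 tested there was called. Over 8 pools Il17a was higher (4.99 ± 0.73), as was Cd163l1, with 127 UMIs in gamma-delta and 3 in CD4 helper T cells, a ratio of 334 (exact 95% interval 112 to 1643). Of 7 genes tested of the inhibitory receptor list, 4 were lower, namely Ctla4 (-3.84 ± 0.62), Lag3 (-3.45 ± 0.68), Pdcd1 (-3.21 ± 0.52) and Tigit (-2.93 ± 0.47). Cd160 was the 1 that was higher. Over 8 pools Pdcd1 was called at -1.21, but not without the Dntt cells (-1.21 ± 0.38, edgeR adjusted p = 0.118). Ccr7, a lymph node homing receptor gene, was lower (-3.80 ± 0.40), as was the growth factor gene Csf2 (-4.01 ± 0.71). Tnfrsf4, with no UMI in gamma-delta T cells, was at least 160.1-fold lower, and the chemokine gene Ccl1 at least 64.6-fold lower.

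Against NK cells, gamma-delta T cells had less of most type 1 and cytotoxic genes over 8 pools. Of 2201 genes tested in the 3 libraries, 6 were higher (0.273%) and 11 lower (0.5%), and over 8 pools 67 (1.61%) and 106 (2.55%) of 4154, sharing 14 of the 17 calls. In the 3 libraries, 3 genes were called without anti-PD-1, 74 without anti-CTLA-4 and 0 without both antibodies, and 3 were higher and 8 lower without the Dntt cells. Ncr1 chose the NK cells and CD3 transcripts were barred from them, so these genes were not tested. Tyrobp, an adaptor of NK receptors (-5.29 ± 0.59), Prf1 (-4.54 ± 0.71), Gzmc (-7.63 ± 0.72), the NK receptor gene Klrk1 (-2.39 ± 0.34) and the transcription factor gene Irf8 (-3.94 ± 0.42) were lower in the 3 libraries. Ly6c2 (2.44 ± 0.31) and the T cell signaling adaptor gene Lat (3.26 ± 0.42) were higher. Il17a and Cd163l1 had no UMI in NK cells and were at least 203-fold and 106-fold higher, taking 3 counts over all NK cells as the limit. Over 8 pools, 13 of 19 type 1 and cytotoxic genes were lower, among them Gzma (-4.70 ± 0.72, and -6.23 ± 0.84 without the Dntt cells), Xcl1 (-2.25 ± 0.33) and Gzmb (-1.70 ± 0.28).

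**Figure D5:**
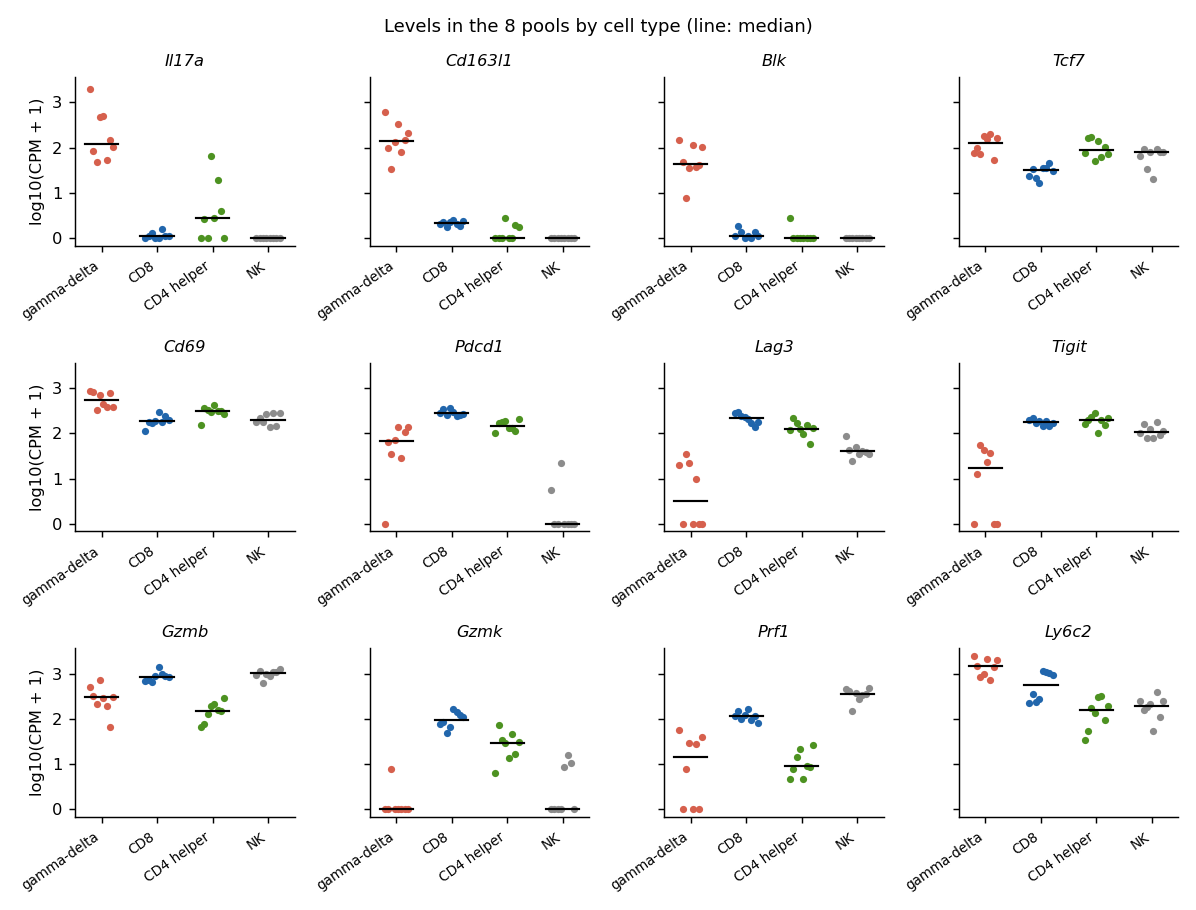
Level of 12 genes as log10(CPM + 1) (y axis) in each of the 8 pools in gamma-delta, CD8, CD4 helper and NK cells (x axis), with a line at the median. Il17a, Cd163l1 and Blk are highest in gamma-delta T cells, Cd69 is higher there (320 to 868 CPM) than in each CD8 pool (112 to 289), and Pdcd1, Lag3 and Tigit are highest in CD8 or CD4 helper T cells.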

How the data were processed

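Cells of 16 RNA libraries (8 treatments in 2 preparations) were measured by the authors with 10x Genomics 5′ single-cell kits and processed with Cell Ranger 4.0.0 against mm10 and with Seurat. The deposited matrix holds raw UMI counts of 32285 genes per barcode, and a second deposited table lists assembled alpha and beta receptor chains of the Percoll libraries. Libraries were tied to treatments by the number in the sample descriptions, and 0 columns of per-sample values were left unused.

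From the counts, barcodes with at least 1000 UMIs and under 10% mt- UMIs were gated. CD8 T cells had at least 2 CD3 UMIs, at least 1 of Cd8b1 and none of Cd4, Ncr1 or Trdc, CD4 helper T cells had Cd4 and no Cd8b1, Ncr1, Foxp3 or Trdc, NK cells had Ncr1 and no CD3, Cd8b1 or Cd4, and macrophages had at least 5 UMIs of C1qb and no CD3. The 276 gate and receptor genes were left out of gene tests. UMIs were summed by pool or library and tested with edgeR 4.0.16 (limma 3.58.1, R 4.3.3; quasi-likelihood, TMM, filterByExpr, Benjamini-Hochberg), with calls at an adjusted p under 0.05 and an absolute log2 fold change over 0.5, and with DESeq2 1.42.0 as an alternative. The study's methods tested cells, which are not replicates here. Shares were compared by two-sided exact permutation tests over pools (scipy 1.17.1 in Python 3.11.15, with pandas 2.3.3 and numpy 2.4.6). Figures were drawn with matplotlib 3.10.9. Scripts were tested on simulated data.

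The 119 cells and all gene lists were chosen with earlier results of these data known, so none is independent evidence. Genes were named when they were in a list, or among up to 10 called genes with the largest increase or decrease in a comparison and at least 50 UMIs, and receptor genes were given as values. Other named genes (those of the Dntt cells, Krt18, Ube2c, Cenpa, and Havcr2 or Il22 outside a call) were chosen after their values were seen. Planned comparisons between Tcrg-V6, Tcrg-V4 and Tcrg-V1 cells were limited to cells with 1 of the Tcrg-V segments and none of the others. They were not made, because no pool held 5 such cells of both kinds. Some list members, counted with their lists, are not reported here by name. Alternatives covered normalization, count filters, limits on cells (200 to 3000 genes and 1000 to 10000 UMIs, as the study used), Trdc thresholds, thinning, preparation and leaving out each pool or library. Libraries held 77132398 to 176233225 UMIs, and the number of gamma-delta T cells and the depth per cell both limit the shares. Closely related gene copies (Tcrg-V segments, granzymes, Ly6c genes) can share reads, and how multiply mapped reads were treated was not given in the sources used here.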

Additional observations from a re-analysis of the deposited data

Results flagged for a closer look

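Within the groups of 4 pools that the agents define, 30 were examined for a pool far from the other 3, and 5 held one, with a gap to the nearest pool over Dixon's 95% critical value. Chance flags about 1 in 20 groups. The gamma-delta share of T cells was 1.66% in the anti-PD-1 pool, against 0.913% to 1.02% in the other 3 pools without PancVAX. Tcrg-V6 was at 0% of 16 gamma-delta T cells in the anti-CTLA-4 pool, which stood apart both among the pools without PancVAX and among those without anti-PD-1. Tcrg-V4 was found in 42.1% of gamma-delta T cells of the pool of both antibodies, the highest of the 4 pools with anti-PD-1. Il17a was found in 21.4% of gamma-delta T cells of the PancVAX with anti-PD-1 pool, the highest of the same 4. Each of the segment and Il17a shares rests on 8 cells or fewer with the gene, and the gamma-delta share of the anti-PD-1 pool on 25 cells.

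The PancVAX difference in the gamma-delta share of T cells differed between preparations, being -0.474 percentage points larger in size in Percoll than in whole tumor libraries (exact permutation p = 0.0286, the smallest that 4 pools against 4 allow). The preparations are also separate sequencing batches.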

How the results depend on the processing

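Shares rest on 10 to 25 cells per pool and gene tests on sums over those cells. Differences in the make-up of the gamma-delta T cells smaller than the spread between pools were therefore not detectable. A larger difference in 1 segment alone, or in Il17a alone, could not pass the adjusted threshold either. Whole tumor libraries alone gave no comparison between cell types, since none held 10 gamma-delta T cells, and Percoll libraries alone are the comparison as reported. The limit of 5% mt- UMIs left 5 pools with 1 residual degree of freedom. Across the alternatives, 175 values kept their direction and side of the threshold or stayed within 1.5 times the reported count, 46 moved and 11 changed sign. The cause of these changes was not tested, except that fewer cells or pools entered some fits.

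The lower gamma-delta share of T cells with PancVAX kept its direction under each alternative run, and its difference was -0.764 to -0.514 percentage points when each pool was left out in turn (smallest possible exact permutation p with 7 pools, 0.0571). As a share of all barcodes the difference was -0.0602 to -0.0212 (without the anti-PD-1 pool), and leaving out each pool from this share was chosen after seeing the data. The other differences in share, on leaving out each pool or pair, were -0.0985 (without the anti-PD-1 pool) to 0.331 for anti-PD-1, -0.358 to 0.0723 (without the anti-PD-1 pool) for anti-CTLA-4 and 0.0521 to 0.152 for Percoll. The anti-PD-1 difference was -0.0101 at 3 or more Trdc UMIs, and the Percoll difference was 0.226 without the TRB condition. For PancVAX and the segments, leaving out each pool gave 4.84 to 15.3 for Tcrg-V6, -12.4 to -4.98 for Tcrg-V4, -21.4 to -9.36 for Tcrg-V1 and -2.50 (without the anti-CTLA-4 pool) to 6.52 for Il17a. Tcrg-V6 turned to -0.159 in whole tumor libraries alone. Tcrg-V4 turned to 0.564 after thinning, 6.36 at 2 or more UMIs and 8.40 in Percoll libraries alone, and Il17a to -1.45, -6.35 and -1.35 under the same 3 settings.

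Without a filter on low counts, 10 genes were called for PancVAX, 19 for anti-PD-1, 23 for anti-CTLA-4, 159 against CD4 helper T cells, 136 against NK cells and 179 for Tcrg-V6 cells. With under 5% mt- UMIs, 20 genes were called for PancVAX, 107 for anti-PD-1 and 168 for anti-CTLA-4. DESeq2 called 2 for anti-CTLA-4 and 251 for Tcrg-V6 cells (16 higher and 235 lower), and 145 against CD8 T cells (9 and 136). The study's limits on cells gave 3 for anti-CTLA-4, 133 against CD4 helper T cells and 98 against NK cells. Leaving out the Dntt cells gave 0 for anti-CTLA-4 and 11 against NK cells. With no replicate block, in place of the library or pool as a block, 150 genes were called against CD8, 29 against CD4 helper and 31 against NK cells, and 47 for Tcrg-V6 cells. Here the block is the library that both cell types share, so the pairing comes from the design. With the 8 pools as the block, 491, 188 and 173 genes were called against CD8, CD4 helper and NK cells, 669, 293 and 248 with the study's limits, 371, 159 and 144 without the Dntt cells, and 462, 251 and 221 with both. Leaving out each pool or library gave 0 to 0 genes for PancVAX, 0 to 2 for anti-PD-1 (2 without PancVAX with both antibodies) and 0 to 4 for anti-CTLA-4 (0 without anti-PD-1, 4 without both antibodies, 2 without PancVAX with anti-PD-1). The ranges were 63 to 197 against CD8, 31 to 159 against CD4 helper and 0 to 74 against NK cells, and 28 to 70 for Tcrg-V6 cells.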
